A study of Mus musculus with 27 samples.

Results

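The 7 genes studied here carry, convert or answer to thyroid hormone, and they were followed in mouse liver through a reproductive cycle: Dio1, Slc16a10, Ttr, Serpina7, Thra, Thrb and Klf9. They are 7 of the 51826 genes in the tables, and all 7 passed the filter on low counts, which 16428 genes passed. They were chosen by name around 1 measured value, the low Dio1 count in lactation against nulliparous mice. That contrast is therefore described here for the 7 genes and not tested, counts of calls in it are given beside the background with nothing read from them, and other comparisons that use its libraries share animals with it. Whole livers came from 27 wild-type BALB/c mice, an inbred strain, with 1 library of total RNA from each animal. The groups were 4 nulliparous mice (NUL, never pregnant), 3 at day 10 of lactation (LAC), and 3, 4, 6 and 3 mice at days 2, 4, 6 and 8 after the pups were removed (ID2, ID4, ID6 and ID8). The last group was 4 mice at 4 weeks after weaning (REG). Mothers were bred at 10 to 12 weeks of age, litters were evened out, and pups were weaned between days 10 and 14 of lactation. The groups were matched for age, and no allele or agent separated them. Nothing in the labels says more of how the animals were housed or at what hour the livers were taken.

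The thyroid secretes mostly thyroxine (T4), and cells remove 1 iodine to make triiodothyronine (T3), the form that binds the nuclear receptors with high affinity. In rodents the liver is a main site of this conversion through type 1 deiodinase, a selenium-containing enzyme made from Dio1, which also clears inactive and sulfated forms of the hormone. The liver also makes the plasma proteins that carry the hormone, takes it up through membrane transporters, and conjugates it for excretion in bile. Dio1 is itself a well known T3-responsive gene in mouse liver.

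Library totals ran from 41120650 to 75664540 expected counts. CPM below are counts scaled to a common total, with allowance for library composition, and compare 1 gene between animals. Levels of different genes are compared only in TPM, the length-scaled share of transcripts, which allow for length. Hepatocyte markers were detected in every library and all 4 thyroid follicular markers (Tg, Tshr, Slc5a5 and Pax8) were under 1 CPM in every library. One ID2 library, animal 31, held 1861 CPM of 11 pancreatic exocrine genes and one ID4 library, animal 15, held 147 CPM, against 45.8 CPM or less in the others. Summed levels of 6 Kupffer cell markers were at most 318 CPM in LAC and at least 343 CPM in NUL, and those of 5 stellate cell markers were 273 to 287 CPM and 346 to 429 CPM. The mean log2 level of 5 sinusoidal endothelial markers was 5.31 in LAC and 5.67 in NUL. Bile duct markers were lower in LAC too (21.4 to 27.9 CPM against 33.9 to 47.2 CPM). So were pancreatic acinar markers (5.89 to 9.85 CPM against 17.6 to 21.4 CPM). On the mean log2 scale the acinar markers were at -1.97 in LAC and -1.80 in NUL. Their sum at ID6, 10.8 to 14.3 CPM, also lay below NUL. The sum of 5 erythroid genes was higher in LAC, at 768 to 1016 CPM against 335 to 712 CPM. The summed level of 7 hepatocyte markers was higher in LAC than in NUL, at 179284 to 221504 CPM against 91662 to 118806 CPM. Among them Alb was higher and Cyp2e1 lower in LAC, and the mean log2 level of the 7 was 12.05 in LAC and 12.03 in NUL. At ID2 the hepatocyte sum was 134507 to 147253 CPM. The erythroid sum was 407 to 1027 CPM at ID4, 53.1 to 264 CPM at ID6 and 19.9 to 35 CPM at ID8. The part of these markers in the results was not tested, and fewer cells of a type cannot be told apart from less RNA per cell in whole tissue. Animal numbers in the titles were under 200 for 7 mice, which were all 3 ID8, 2 of 3 ID2 and 2 of 4 ID4 mice, and 200 or over for the other 20.

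The promoters of Dio1 and Slc16a10 are shown because Dio1 is the gene around which the 7 were chosen and Slc16a10 is the transporter among them. Each runs 5′ to 3′ on the gene's strand up to the base before the annotated start of the gene. The sequences come from RefSeq on GRCm38.p6, and promoters of 5 of the 7 genes were searched. Dio1 lies on the minus strand at chr4:107307170-107307418 (249 bases) and Slc16a10 on the minus strand at chr10:40142259-40142504 (246 bases). Capitals mark the GC box GGGCGG.
Dio1: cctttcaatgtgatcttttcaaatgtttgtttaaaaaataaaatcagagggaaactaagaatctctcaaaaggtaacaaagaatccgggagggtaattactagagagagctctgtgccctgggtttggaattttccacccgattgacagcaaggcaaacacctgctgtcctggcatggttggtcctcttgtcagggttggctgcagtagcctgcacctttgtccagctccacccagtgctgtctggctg
Slc16a10: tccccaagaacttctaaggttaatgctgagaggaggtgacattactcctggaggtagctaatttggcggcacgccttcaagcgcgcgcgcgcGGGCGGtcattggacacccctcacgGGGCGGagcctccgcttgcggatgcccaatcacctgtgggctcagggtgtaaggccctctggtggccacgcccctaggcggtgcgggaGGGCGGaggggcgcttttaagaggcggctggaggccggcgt
The motifs below were searched on both strands in the 250 bases before the RefSeq start: the thyroid hormone receptor half-site AGGTCA, 2 such half-sites as a direct repeat with any 4 bases between them, and the GC box. The half-site occurred in 14% of 32851 promoter windows, the direct repeat in 0.0152% and the GC box in 32.7%. Dio1 had none of the 3, and its printed bases were 46.6% G or C. Slc16a10 had 3 GC boxes, at positions -158, -133 and -45 from the RefSeq start, no half-site, and 65% G or C. The median of all windows was 52.4%. The first of the 2 Thrb windows held a half-site at -184 and 3 GC boxes, and the windows of Klf9 and Serpina7 held none of the motifs. A match is a description of these letters only.

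Dio1 (ENSMUSG00000034785, chromosome 4, 107291465 to 107307169, minus strand, GRCm38) had its lowest level in lactation. The NUL animals had 76.3, 93.4, 62.5 and 57.3 CPM and the LAC animals 7.17, 10.9 and 4.14 CPM. No LAC animal came near any other animal of the series, since the lowest value outside LAC was 20.9 CPM, in 1 ID6 mouse. The means were 72.4 ± 16.1 CPM (SD, n = 4) in NUL and 7.4 ± 3.39 CPM (n = 3) in LAC, a fitted log2 difference of -3.29 (SE 0.416), or 9.77-fold lower. This contrast chose the genes, so the value carries no test. By the same fit 54 of the 16428 genes tested had a more negative value. In the subset of 11002 genes whose mean log2 CPM was 1 or more, only 1 did.

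At ID2, the first stage after weaning, Dio1 was at 27.9, 29.4 and 52.3 CPM, above every LAC animal and below every NUL animal. Its log2 value for ID2 against LAC was 2.30 (SE 0.413), or 4.92-fold higher, a step in which marker sums given above moved too. For ID2 against NUL the Dio1 value was -0.99 (SE 0.369). At ID4 the 4 mice had 58.2, 64.8, 107 and 67.8 CPM, 3 of them within the NUL range and 1 above it, with a log2 value of 0.04 (SE 0.332) against NUL. The later stages lay lower again. The 6 ID6 mice ran from 20.9 to 50 CPM with a median of 40.2 CPM, the ID8 mice had 35.9, 31.8 and 38.7 CPM, and the REG mice had 40.8, 62, 21.5 and 28.4 CPM. Every ID6 and ID8 mouse was below every NUL mouse, while 1 REG mouse at 62 CPM lay inside the NUL range. The fitted log2 values against NUL were -0.89 (SE 0.3) at ID6, -1.03 (SE 0.37) at ID8 and -0.92 (SE 0.336) at REG. The NUL libraries were part of the contrast that chose Dio1, so these are descriptions. In order of mean CPM the stages were ID4, NUL, ID6, REG, ID2, ID8 and LAC. In that order only NUL and ID6, and ID8 and LAC, were neighbours without overlap between animals.

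The comparisons that use neither NUL nor LAC were tested. Dio1 was higher in all 4 ID4 mice than in all 3 ID2 mice, but the log2 difference of 1.03 (SE 0.37) had an edgeR adjusted p of 0.190. The Kupffer cell sum was also higher in all ID4 than in all ID2 mice, with mean log2 levels of 5.80 and 5.08. At ID6, where Dio1 was lower than at ID4, that level was 5.65. The hepatocyte sum was lower in all ID4 than in all ID2 mice. The part of these markers in the Dio1 difference was not tested. All 6 ID6 mice were below all 4 ID4 mice, with a log2 difference of -0.93 (SE 0.3) and an adjusted p of 0.0594. DESeq2 called that difference at an adjusted p of 0.0235, and over all alternatives the value ran from 0.0235 to 0.207. Summed acute phase transcripts, from 8 genes, were highest at ID4, at 16739 to 28174 CPM against 9818 to 20608 CPM at ID6. Those and the erythroid sum, which was lower in all ID6 than in all ID4 mice, moved with Dio1 in this step. Their part in the difference was not tested. In LAC, where Dio1 was lowest, the erythroid sum was 768 to 1016 CPM, and at REG it was 451 to 639 CPM. Dio1 at ID8 differed from ID6 by -0.14 on the log2 scale (edgeR adjusted p = 0.863), and at REG from ID8 by 0.11 (adjusted p = 0.953). RSEM's effective length for Dio1 ranged from 1046 to 1450 bases over the libraries, so the mix of transcripts it was assigned to varied. In TPM the LAC mice held 3.59 to 8.44 and the NUL mice 53.4 to 80.3. The ID6 mice held 24.1 to 54.6 TPM and the ID4 mice 47.7 to 89.5 TPM, so on this scale ID6 overlapped both ID4 and NUL, and limma gave a log2 difference of ID6 from ID4 of -0.64 (adjusted p = 0.135).

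**Figure D1:**
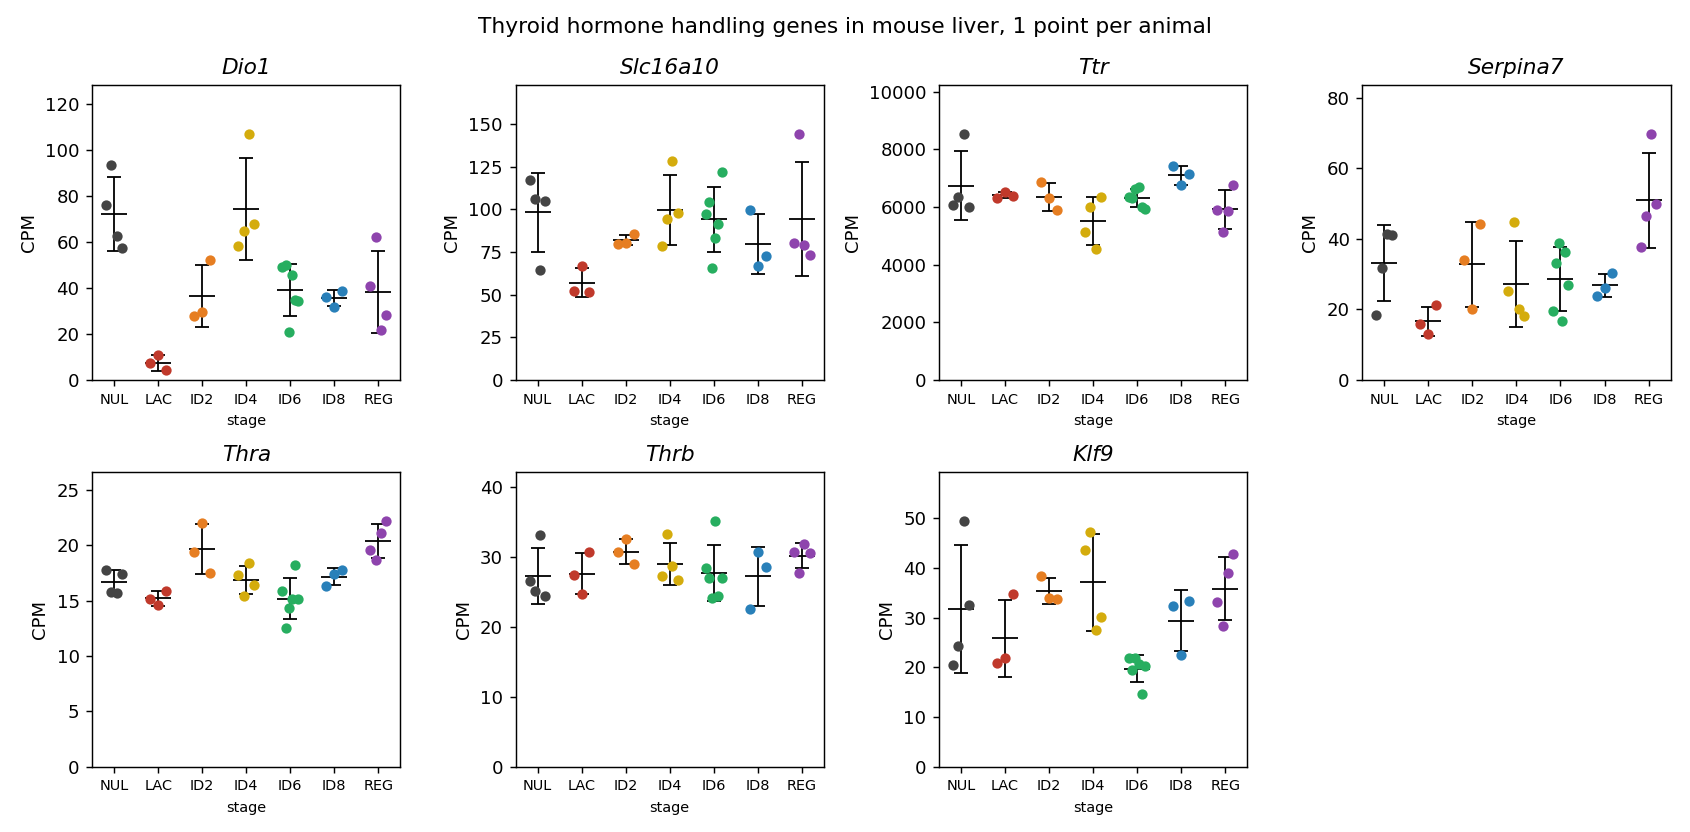
CPM of the 7 genes in each of 27 animals, by stage, with 1 point per animal and horizontal bars for the mean ± SD on axes that start at 0. The 3 LAC points of Dio1 lie between 4.14 and 10.9 CPM, below all other animals.

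The 2 other deiodinases had very low counts. Dio2, which activates T4 in brown fat, brain and pituitary, had a count of 0 in 21 of 27 libraries, never exceeded 7 counts, and did not pass the filter. Dio3, which inactivates the hormone, never exceeded 20 counts and was called in none of LAC against NUL, ID2 against LAC and ID6 against ID4. Its highest TPM was 0.23, against a median of 39.4 TPM for Dio1.

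Across the 7 genes, a joint test of any difference among stages called 4 of 7, where 27% of all genes tested were called. Dio1, whose LAC and NUL values chose the genes, was 1 of the 4, and nothing is read from that. The other 3 were Thra (adjusted p = 0.00318), Klf9 (0.0242) and Serpina7 (0.0444). Slc16a10 (0.132), Ttr (0.2) and Thrb (0.735) were not called. Leaving out animal ID6_209 reduced the count to 2 (Dio1 and Thra), while DESeq2 called 5, with Slc16a10 added, and limma on TPM called 5, with Ttr added. In LAC against NUL, Dio1 and Slc16a10 were called lower and none higher (11.2% of all genes called), a count that the choice of the genes fixed for Dio1. The median log2 value of the 7 was -0.29, with -0.009 over all genes, and it is the value of Klf9, which was 0.0047 without NUL_226. In ID2 against LAC, Dio1 and Thra were called higher and none lower (16.1% of all genes called), with a median of 0.45 against 0.015. The Dio1 call there reuses the LAC values that chose the genes, so nothing is read from it. In ID6 against ID4, Klf9 was called lower (8.53% of all genes called), with a median of -0.08 against 0.014.

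None of the 7 was called by edgeR in the other 8 comparisons. The share of all genes called there was 3.24% in ID2 against NUL, 4.25% in ID4 against NUL, 1.08% in ID6 against NUL, 0.499% in ID8 against NUL and 0.0852% in REG against NUL. It was 1.49% in ID4 against ID2, 4.12% in ID8 against ID6 and 0.0487% in REG against ID8. At an unadjusted edgeR p under 0.05, 2 of the 7 passed in ID2 against NUL, where 16.9% of all genes did. Against NUL there were also 1 at ID4 (18.6%), 2 at ID6 (11.9%), 1 at ID8 (12.8%) and 2 at REG (7.17%). Dio1 was among them at ID2, ID6, ID8 and REG. Those comparisons reuse the NUL values that chose the genes, so nothing is read from that. There were 2 in ID4 against ID2 (13.9%), 1 in ID8 against ID6 (20.5%) and 3 in REG against ID8 (9.02%). DESeq2 called 0 in all 8, and limma on log2 TPM called 1, Ttr in ID4 against NUL. The plot of fitted changes shows Dio1 as the gene with the largest values in LAC against NUL and ID2 against LAC.

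**Figure D2:**
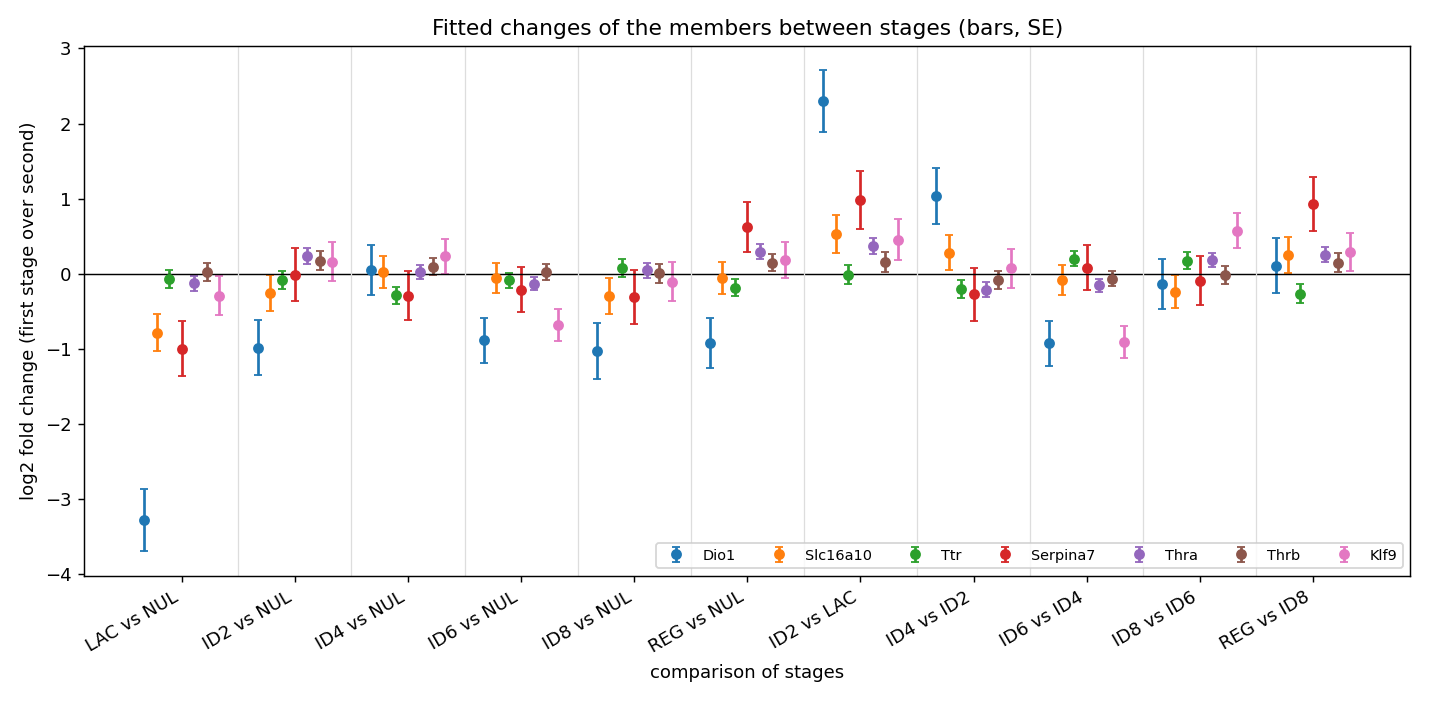
Fitted log2 fold change of each of the 7 genes (first stage over second, points) with its SE (bars) in 11 comparisons of stages. Dio1 is at -3.29 in LAC against NUL and at 2.30 in ID2 against LAC, and Thrb stays near 0 throughout.

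Slc16a10 (ENSMUSG00000019838, chromosome 10, 40033532 to 40142258) encodes MCT10, which carries aromatic amino acids and also T3 and T4. The NUL mice had 117, 106, 64.6 and 105 CPM and the LAC mice 52.2, 66.7 and 51.7 CPM. The groups overlapped through 1 NUL mouse, and the means were 98.1 ± 22.9 and 56.9 ± 8.55 CPM. The log2 difference was -0.79 (SE 0.241), or 1.72-fold lower, given as a description. Its call was lost when any of 6 animals was left out (NUL_220, NUL_221, NUL_227, LAC_200, LAC_213 or LAC_240), with no filter on low counts, with only the 2 stages in the fit and with clock genes as a covariate, although the log2 difference in the last 3 fits lay between -0.80 and -0.75. All 3 ID2 mice, at 79.9, 80.3 and 85.6 CPM, were above all 3 LAC mice, but the log2 difference of 0.53 (SE 0.254) was not called (adjusted p = 0.172). With only those 2 stages in the fit the adjusted p was 0.00594, and over the alternatives it ran from 0.00594 to 0.327. From ID4 to REG the means lay between 79.6 and 99.5 CPM, and every neighbouring pair in the order of means overlapped except ID8 and LAC.

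The other plasma membrane transporters of thyroid hormone on the fixed list were 8 genes, of which 7 were tested. In LAC against NUL 1 was called higher and 2 lower, where 11.2% of all genes were called, with a median log2 value of -0.01 and -0.009 over all genes. Slc7a8, a neutral amino acid exchanger that also moves T3, fell from 4.01 ± 1.05 to 2.4 ± 0.641 CPM (log2 -0.74, adjusted p = 0.0147) and rose again at ID2 (log2 0.82, adjusted p = 0.00904). Slco1b2, the main hepatic organic anion transporter of this family in mice, fell from 730 ± 53.7 to 570 ± 85.4 CPM (log2 -0.36, adjusted p = 0.0434). Slc17a4, a transporter with high affinity for T3 and T4, rose from 57.1 ± 7.03 to 82.9 ± 4.16 CPM (log2 0.54, adjusted p = 0.0135). The rise of Slc17a4 was not called without animal LAC_213. The call of the Slc7a8 fall was lost without NUL_226, LAC_213 or LAC_240 and with only the 2 stages in the fit (log2 -0.74). The call of its rise at ID2 was lost without LAC_240 and with title numbers (log2 0.76) or clock genes (log2 0.63) as a covariate. The fall of Slco1b2 was lost without any 1 of 6 animals (each NUL animal, LAC_200 and LAC_240), with only the 2 stages in the fit (log2 -0.36) and with clock genes as a covariate (log2 -0.33).

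Ttr (ENSMUSG00000061808) encodes transthyretin, which carries T4 and the retinol-binding protein in plasma. It was the most abundant of the 7, at 5458 to 10779 TPM. The NUL mice had 6076, 6340, 8526 and 5992 CPM and the LAC mice 6318, 6510 and 6385 CPM, so all LAC mice lay within the NUL range. The highest stage mean, 7106 ± 330 CPM at ID8, was 1.29 times the lowest, 5505 ± 825 CPM at ID4. The log2 difference of ID4 from NUL was -0.29 (SE 0.113, adjusted p = 0.149), and limma on TPM called it. Without NUL_226, the NUL mouse at 8526 CPM, the difference was -0.16 (adjusted p = 0.503).

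Serpina7 (ENSMUSG00000031271, chromosome X, 139079257 to 139085236) encodes thyroxine-binding globulin, a carrier of high affinity and low abundance. In NUL it was at 18.5, 31.7, 41.3 and 41.2 CPM and in LAC at 15.8, 12.9 and 21.1 CPM, overlapping through 1 NUL mouse. LAC was 2-fold lower by the fit (SE 0.367 on the log2 scale), given as a description and called only by DESeq2 or without animal NUL_220. ID2 stood at 34.1, 20.2 and 44.1 CPM, a log2 difference from LAC of 0.98 (SE 0.386) that was not called (adjusted p = 0.0907). The REG mice had the highest mean of any stage, 51 ± 13.5 CPM, with animals at 37.7, 46.4, 69.7 and 50 CPM. All 4 were above all 3 ID8 mice, but neither REG against ID8 (log2 0.93, adjusted p = 0.47) nor REG against NUL (log2 0.62, adjusted p = 0.762) was called. In TPM, Ttr exceeded Serpina7 by 106-fold to 813-fold, with medians of 675 in LAC, 301 in NUL and 177 in REG.

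Albumin, the carrier of lowest affinity and highest abundance, was listed beside them. Alb was at 89786 ± 10421 CPM in NUL and 177113 ± 22998 CPM in LAC, and it rose by 0.98 on the log2 scale (SE 0.144, adjusted p = 5.48e-05). The ratio of Alb to Ttr in TPM was 13.5 to 17 in LAC and 6.21 to 8.37 in NUL, without overlap. At ID2, Alb fell to 120155 ± 5465 CPM (log2 -0.56, adjusted p = 0.0144). That fall was lost without animal LAC_213 or animal ID2_31, with title numbers or clock genes as a covariate, and with only the 2 stages in the fit, although its log2 difference in the last 3 fits lay between -0.57 and -0.56.

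Thra and Thrb encode the nuclear receptors TRα and TRβ, and TRβ is the form that carries most of the T3 response of hepatocytes. Thrb (ENSMUSG00000021779, chromosome 14, 17660261 to 18038090) had the smallest ratio between stage means of the 7, with means from 27.2 to 30.7 CPM, a ratio of 1.13. The ranges of every neighbouring pair of stages overlapped. In LAC it was at 27.4, 24.7 and 30.6 CPM and in NUL at 26.5, 25.1, 33.1 and 24.3 CPM, a log2 difference of 0.02 (SE 0.123).

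Thra (ENSMUSG00000058756, chromosome 11, 98740638 to 98769006) was at 17.8, 15.8, 15.7 and 17.4 CPM in NUL and 15.1, 14.6 and 15.9 CPM in LAC, with overlap. At ID2 it was at 19.4, 22 and 17.5 CPM, above every LAC mouse, and it rose by 0.37 on the log2 scale over LAC (SE 0.11, edgeR adjusted p = 0.0216). Over the alternatives the adjusted p ran from 0.0146 to 0.136. The call was lost without LAC_200, LAC_213 or ID2_31, the last being the library with pancreatic transcripts, and with title numbers or clock genes as a covariate, where the log2 difference was 0.40 in both. The REG mice, at 19.6, 18.7, 21.1 and 22.2 CPM, were all above the NUL mice, yet the log2 difference of 0.29 was not called (adjusted p = 0.337). The gene overlaps Nr1d1 on the other strand by 1075 bases, and its count was fractional in all 27 libraries. Without a stated strand setting, reads of this overlap cannot be told apart. Nr1d1 had a log2 value of 1.05 in ID2 against LAC, not called (adjusted p = 0.263). Per length, Thra exceeded Thrb in every library, with a TPM ratio from 1.15 to 2.02 and a median of 1.7. Both are gene totals over all transcripts, and that of Thra may hold reads of the overlap.

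The receptors bind DNA with a retinoid X receptor and exchange corepressors for coactivators when T3 binds. Of 15 such partners and coregulators, edgeR called 0 in LAC against NUL, with a median log2 value of -0.03. At an unadjusted p under 0.05 there were 2, Rxra and Tbl1xr1, where 23.6% of all genes passed, and DESeq2 called 0. In ID2 against LAC only Rxra of the 15, the main retinoid X receptor of liver, was called, where 16.1% of all genes were. It rose from 332 ± 11.2 to 430 ± 42.5 CPM (log2 0.37, adjusted p = 0.0149), and the call was lost without LAC_213 or ID2_39 and with either covariate. In ID6 against ID4, Rxra fell from 454 ± 15.4 to 359 ± 25.8 CPM (log2 -0.34, adjusted p = 0.0101), a call lost with title numbers as a covariate and on TPM.

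Klf9 (ENSMUSG00000033863, chromosome 19, 23141226 to 23168134) encodes a zinc finger factor that T3 and glucocorticoids induce directly and that cycles with the circadian clock. The NUL mice had 20.4, 24.3, 49.5 and 32.5 CPM and the LAC mice 20.8, 21.9 and 34.8 CPM, all inside the NUL range (log2 -0.29, SE 0.258). That value was 0.0047 without NUL_226 and -0.57 without LAC_240. Its lowest stage was ID6, where 6 mice ran from 14.6 to 21.9 CPM with a median of 20.4 CPM, below all 4 ID4 mice at 43.6, 47.2, 27.5 and 30.1 CPM. The fall from ID4 to ID6 was 1.88-fold (log2 -0.91, SE 0.214, edgeR adjusted p = 0.0112), and at ID8 it stood at 32.4, 22.4 and 33.4 CPM, above every ID6 mouse but not called (log2 0.57, adjusted p = 0.166).

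Of 14 clock genes listed, 1 was called higher (Arntl) and 1 lower (Tef) in ID6 against ID4, where 8.53% of all genes were called. A clock score was formed from the mean standardised log2 CPM of Dbp, Tef, Per2, Per3, Nr1d1, Nr1d2 and Ciart minus that of Arntl, Npas2, Clock, Nfil3 and Cry1. Its median was -1.40 at ID6 (range -2.17 to -0.74), -0.07 at ID4 (-0.66 to 1.67) and 1.87 at ID2. With the score as a covariate the log2 difference of ID6 from ID4 was -0.76 and its adjusted p 0.0623. In ID4, 2 mice have title numbers under 200 and all ID6 mice have higher numbers. Within title numbers of 200 or over, the 2 ID4 mice, at 27.5 and 30.1 CPM, remained above the 6 ID6 mice. With the title number range as a covariate the log2 difference was -0.73 and the adjusted p 0.106, and over all alternatives it ran from 0.00154 to 0.106. No single animal left out ended the call. The erythroid sum given above also separated the ID4 from the ID6 mice, 7 of the 8 acute phase genes were called lower at ID6, and the part of either in the Klf9 difference was not tested.

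**Figure D3:**
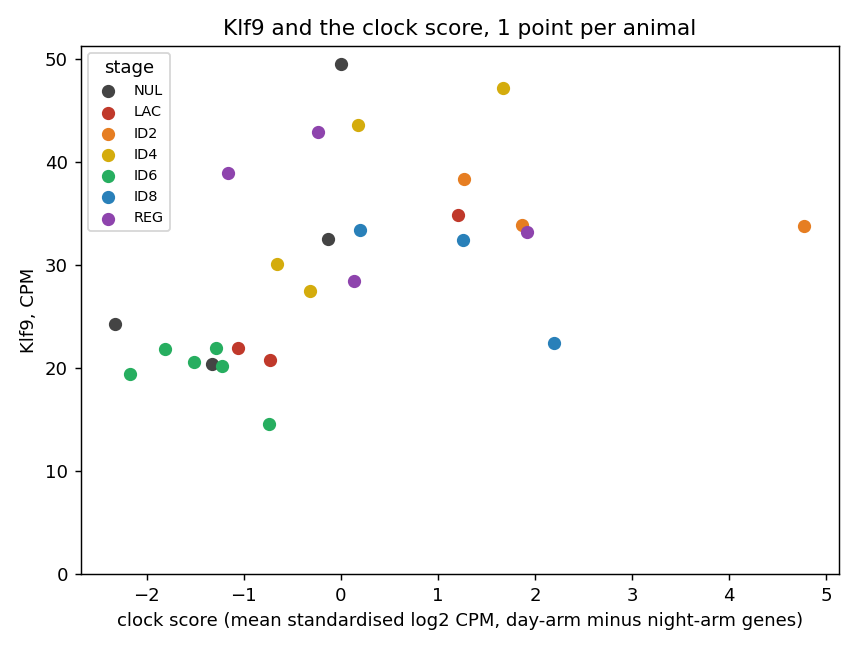
Klf9 CPM (vertical, from 0) against the clock score (horizontal, in standard deviation units of log2 CPM) in 27 animals coloured by stage. All 6 ID6 animals lie below a score of -0.7 and at 21.9 CPM or less.

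Beyond Klf9, 16 liver genes known to respond to T3 were listed, all of them tested. In LAC against NUL 3 were called higher and 3 lower, where 11.2% of all genes were called, with a median log2 value of 0.20 and -0.009 over all genes. Those higher belong to fat synthesis. Fasn, fatty acid synthase, rose from 352 ± 99.5 to 1509 ± 355 CPM (log2 2.10, adjusted p = 0.012). Acaca, acetyl-CoA carboxylase, rose from 93 ± 13.3 to 253 ± 25.6 CPM (log2 1.44, adjusted p = 0.00797), and Me1, malic enzyme, from 166 ± 25.5 to 355 ± 77.8 CPM (log2 1.09, adjusted p = 0.00686). Thrsp, or Spot 14, the classical T3-induced gene of lipogenic tissue, was at 364 to 385 CPM in LAC and 60.5 to 167 CPM in NUL. Its groups did not overlap, but its log2 difference of 1.76 (SE 0.638) was not called (adjusted p = 0.0836).

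The 3 called lower were Pck1, Cpt1a and Bcl3. Pck1, which commits carbon to glucose synthesis, fell from 1643 ± 488 to 642 ± 256 CPM (log2 -1.36, adjusted p = 0.0427). Cpt1a, which admits fatty acids to mitochondria, fell from 285 ± 30.9 to 176 ± 23.5 CPM (log2 -0.70, adjusted p = 0.0198). Bcl3, an NF-κB regulator induced by T3 in liver, fell from 27.9 ± 2.79 to 15.6 ± 0.876 CPM (log2 -0.84, adjusted p = 0.0017). The call of Pck1 was lost without NUL_226, NUL_227, LAC_200 or LAC_213. It was lost also without the filter on low counts, with the number of runs as a covariate and with only the 2 stages in the fit. The log2 difference of Pck1 in these last 3 fits lay between -1.365 and -1.339. The call of Cpt1a was lost without NUL_221, LAC_200 or LAC_213. Several of the 16 genes, Fasn and Pck1 among them, are also known to answer to insulin and fasting.

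Within 2 days of weaning the same 6 genes were called in the opposite direction. In ID2 against LAC 4 of the 16 listed genes were called higher and 5 lower, where 16.1% of all genes were called, with a median log2 value of -0.64 and 0.015 over all genes. Fasn fell by 2.53 on the log2 scale (adjusted p = 0.00631), Me1 by 1.76 (0.000285) and Acaca by 1.54 (0.00787). Pdk4 (log2 -1.40, adjusted p = 0.00601) and Gpd2 (log2 -0.61, 0.00799) fell too. Pck1 rose by 2.25 (adjusted p = 0.00242), Cpt1a by 1.16 (0.000601), Ppargc1a by 1.12 (0.00451) and Bcl3 by 0.63 (0.0165). The 2 comparisons share the LAC libraries. In ID2 against LAC, 3 of 8 acute phase genes were called higher, and of 14 clock genes 2 were called higher and 2 lower. Those genes and marker sums given above moved in the same step, and their part was not tested. The call of Bcl3 was lost here without LAC_200, LAC_213 or ID2_39 and with title numbers or clock genes as a covariate. That of Gpd2 was lost without LAC_213 and on TPM, and that of Pdk4 with clock genes as a covariate.

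In ID6 against ID4, 6 of the 16 listed genes were called higher and 2 lower, where 8.53% of all genes were called, with a median of 0.56 and 0.014 over all genes. Fasn rose from 95.9 ± 8.77 to 348 ± 193 CPM (log2 1.86, adjusted p = 0.0185), while Cpt1a fell by 0.68 (0.00966) and Ppargc1a by 0.81 (0.0129). Leaving out animal ID4_13 reduced the 8 calls to 3, those of Fasn, Acaca and Me1 being among the calls lost. The call of Fasn was also lost without ID4_215, and those of Fasn (log2 1.93) and Cpt1a (log2 -0.62) with title numbers as a covariate.

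Before excretion the hormone is sulfated or glucuronidated. Of 7 genes for cytosolic binding and conjugation, 2 were called higher and 1 lower in LAC against NUL, where 11.2% of all genes were called, with a median log2 value of 0.32 and -0.009 over all genes. Ugt1a9, a glucuronosyltransferase, had the smallest adjusted p of the listed genes in this comparison, going from 24.3 ± 5.65 CPM in NUL to 109 ± 19.6 CPM in LAC (log2 2.17, SE 0.172, adjusted p = 2.94e-08). It then fell to 60.6 ± 8.21 CPM at ID2 (log2 -0.85, adjusted p = 0.00283) and remained above NUL at ID2 (log2 1.32, adjusted p = 0.000108), ID4 (adjusted p = 0.000596) and ID6 (log2 0.73, adjusted p = 0.0102). Ugt1a1, the bilirubin-conjugating form, fell from 871 ± 87.9 to 641 ± 37.4 CPM (log2 -0.44, adjusted p = 0.0105) and rose at ID2 (log2 0.48, adjusted p = 0.00696). The 2 genes share their last exons and their counts were fractional in 26 or more libraries, so their division of reads is uncertain. Sult1c2, a sulfotransferase, rose by 0.58 (adjusted p = 0.00433) and fell again at ID2 (log2 -0.56, adjusted p = 0.00831). Sult1b1, which sulfates thyroid hormones, rose at ID2 from 16 ± 3.03 to 24.5 ± 1.13 CPM (log2 0.62, adjusted p = 0.00851). The fall of Ugt1a1 was lost without LAC_200 and its rise without ID2_224, the ID2 fall of Sult1c2 without LAC_213, and the rise of Sult1b1 without LAC_240.

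Because type 1 deiodinase is a selenoprotein, 23 other selenoprotein and selenocysteine machinery genes were listed. In LAC against NUL 3 were called higher and 1 lower, where 11.2% of all genes were called, with a median log2 value of 0.03 and -0.009 over all genes. Gpx4, which detoxifies lipid peroxides, rose to 345 ± 26.9 CPM (log2 0.61, adjusted p = 0.000604), and Txnrd1, a thioredoxin reductase, from 116 ± 4.89 to 155 ± 5.16 CPM (log2 0.43, 0.000308). Gpx3, the plasma glutathione peroxidase, rose by 0.63 (adjusted p = 0.0482), a call lost without any 1 of 5 animals (NUL_220, NUL_221, NUL_227, LAC_213 and LAC_240). It was lost also without the filter on low counts, with clock genes or the number of runs as a covariate, with an effective length offset, with only the 2 stages in the fit and on TPM. The log2 difference in these fits lay between 0.61 and 0.63, except on TPM (0.44 and 0.52). Gpx1, a cytosolic form, fell from 1976 ± 149 to 1521 ± 40.1 CPM (log2 -0.38, adjusted p = 0.0215), a call lost without NUL_220, NUL_221 or any LAC animal. In ID2 against LAC, 2 were called higher (Gpx1 and Sephs2) and 3 lower (Gpx4, Txnrd1 and Selenok), where 16.1% of all genes were called. Txnrd1 fell by 0.56 on the log2 scale there (adjusted p = 3.16e-05). The call of Gpx1 there was lost without ID2_224, that of Gpx4 with title numbers or clock genes as a covariate, and that of Sephs2 with either covariate or without LAC_213. Counts of Gpx4 were fractional in all 27 libraries.

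**Figure D4:**
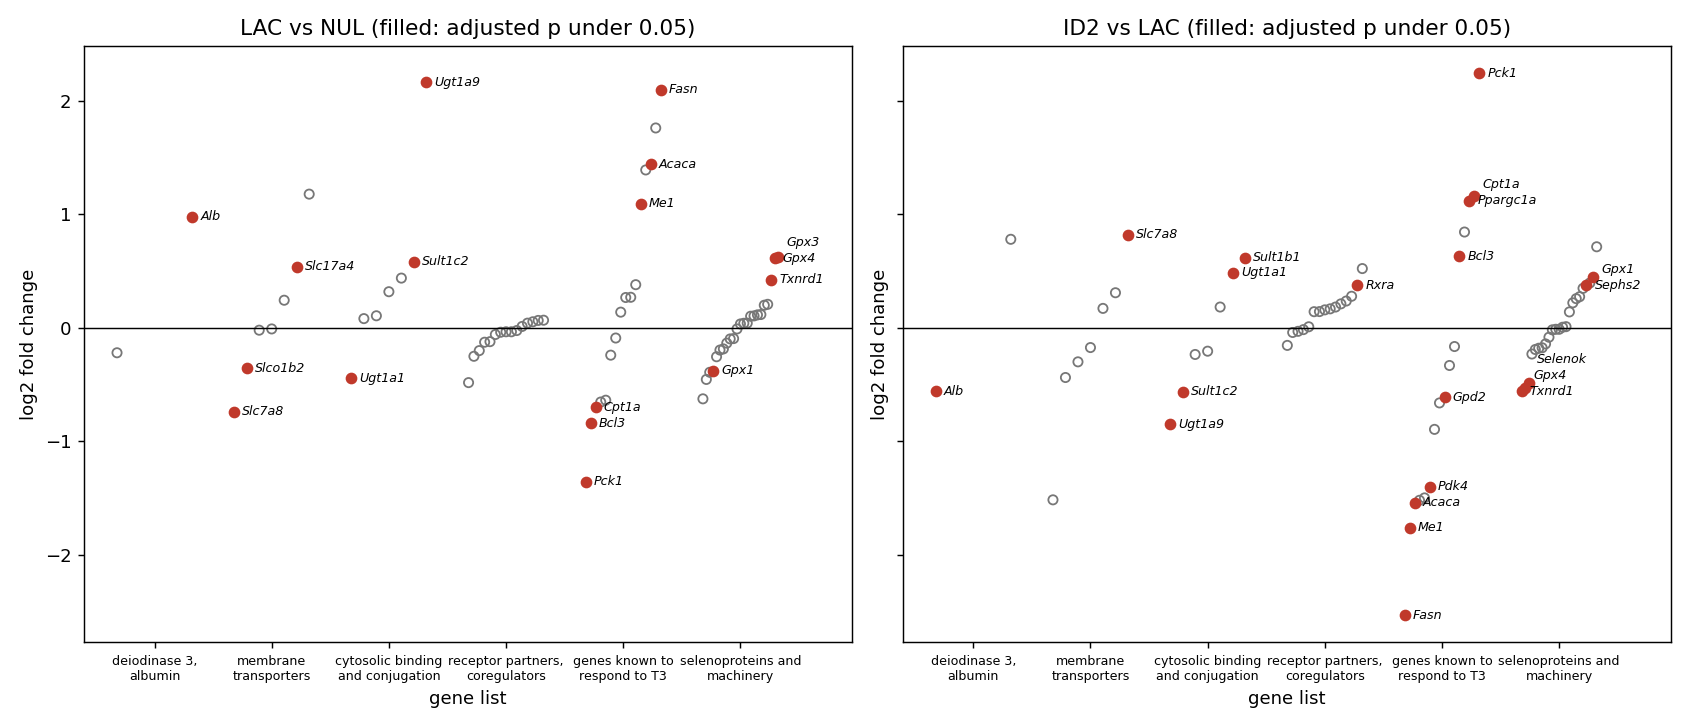
Fitted log2 fold change (vertical) of 70 listed genes of the pathway in LAC against NUL and ID2 against LAC, grouped by list, with filled points for an adjusted p under 0.05. Fasn, Acaca and Me1 stand above 0 on the left and below 0 on the right, and no receptor partner is filled on the left.

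The log2 CPM of 10522 named genes, each averaging 1 or more, was compared with that of Dio1 over the 27 libraries, as a description. The points share the stage groups, and the 3 LAC libraries weigh on every value. The highest Pearson correlations were those of Lect2, a liver-secreted chemotaxin (r = 0.87, Spearman's rho 0.74), Rnase4 (0.85, 0.73), Ang (0.83, 0.70), Cyp2e1 (0.81, 0.66) and Bcl3 (0.80, 0.74). Without the LAC libraries, over 24 animals, r was 0.61, 0.63, 0.59, 0.45 and 0.62. Rnase4, a secreted ribonuclease, averaged 1243 CPM in NUL, 710 CPM in LAC and 1257 CPM at ID2, and Cyp2e1, an alcohol-oxidising cytochrome, averaged 4184, 1495 and 3242 CPM. The most opposite genes were Tnik, a kinase (r = -0.86, rho -0.89, and -0.79 without LAC), Slco2a1, a prostaglandin transporter (-0.85, -0.66 and -0.51), and Celsr1, a cadherin (-0.82, -0.61 and -0.42). Tnik averaged 2.02 CPM in NUL, 4.74 CPM in LAC and 1.85 CPM at ID4. Of the other 6 genes of the set, Slc16a10 stood at rank 11 (r = 0.75), and r was 0.22 for Serpina7, 0.09 for Thra, 0.08 for Klf9, -0.02 for Thrb and -0.25 for Ttr. These 6 values include the LAC and NUL libraries that chose the genes, and none is given without LAC. Slc16a10 was itself lowest in LAC.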

How the data were processed

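Liver RNA of 27 mice was sequenced, with 1 library per animal. Per the submitters' processing notes, STAR 2.6.1a and RSEM 1.3.1 were used with mm10/GRCm38, and the annotation release, trimming and use of strand are not given in the sources used here. Per the file headers, the deposited tables hold RSEM's expected count, an estimate of reads per gene that is not normalised between libraries, the TPM, scaled by the authors to 1 total per library, and the effective length in bases. Symbols and positions were matched by identifier to GENCODE mouse release 21. Of the libraries, 16 came from 2 sequencing runs and 11 from 1, per the authors' readme.

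Expected counts were rounded and then tested with edgeR 4.0.16 under R 4.3.3 (filterByExpr by stage with a minimum count of 10, TMM, estimateDisp, robust glmQLFit, glmQLFTest). All 27 libraries entered 1 fit, 11 comparisons of stages and a joint test were made, and a gene was called at a two-sided Benjamini-Hochberg adjusted p under 0.05 over 16428 genes. The labels do not say that animals of a group were housed or handled apart, so p-values measure the spread between these animals. No libraries of a group agreed within sampling noise (smallest chi-square per gene 42.9). Steps were tested on simulated data. DESeq2 1.42.0, and limma 3.58.1 on log2 of TPM plus 1 or 0.1, were alternatives. Intervals were not computed, and counts without molecular identifiers carry counting error besides the spread.

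The 7 genes and the gene lists were chosen with earlier results of these data known. Named genes were the 7, every listed gene called in LAC against NUL, up to 4 called examples per list with the largest change in other comparisons, and the 5 most and 3 least correlated genes beside Dio1. Further listed genes that the text names (Tbl1xr1, Thrsp, Dio3, Nr1d1 and listed genes beyond 4 in ID2 against LAC) were chosen after their values were seen. Of the fixed lists, 1 transporter and 1 marker are not reported here, and counts leave them out.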

Additional observations from a re-analysis of the deposited data

Results flagged for a closer look

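Among 28 tests of a stage with 4 or more animals for 1 of the 7 genes, 3 had an animal far from the others of its stage, and chance alone marks about 1 in 20. Slc16a10 was at 144 CPM in animal REG_214, against 73.3 to 80.1 CPM in the other 3, a gap of 0.904 of the whole range. Ttr was at 8526 CPM in animal NUL_226, against 5992 to 6340 CPM in the others (0.863 of the range). Klf9 was at 14.6 CPM in animal ID6_230, against 19.4 to 21.9 CPM in the other 5 (0.652 of the range).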

How the results depend on the processing

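Of 1372 values of the 7 genes under an alternative, 16 lost and 9 gained a call, and 2 that carry no call moved by more than the spread. The sign differed in 92, with 0 of them called in either fit and sizes of at most 0.29 as reported and 0.24 under the alternative. In LAC against NUL the count of the 7 genes called was 2, and 1 at an adjusted p under 0.01, without the filter, with the clock score as covariate and with only the 2 stages, 3 with DESeq2 (Serpina7 added, adjusted p = 0.0414), and 1 to 2 with 1 animal left out. In ID2 against LAC it was 2, and 1 at 0.01 and with the title number range or the clock score as covariate, 3 with only the 2 stages (Slc16a10 added), and 1 to 2 with 1 animal left out. In ID6 against ID4 it was 1, 0 under those same 3 alternatives, and 2 with limma on TPM at either pseudocount (Ttr and Klf9) and with DESeq2 (Dio1 and Klf9). It rose from 0 to 1 in ID4 against NUL with limma on TPM at both pseudocounts (Ttr) and in ID8 against NUL with only the 2 stages (Dio1). The joint test called 4, 2 at 0.01, 5 with DESeq2 and with limma on TPM, 3 without the filter or with the clock score as covariate, and 2 to 4 with 1 animal left out. No paired analysis was possible because each animal number occurs in only 1 group. A covariate for the number of sequencing runs, chosen after seeing the data, changed none of the counts of the 7.

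Over all genes, calls ranged across the alternatives that keep every animal from 822 (0.01) to 2172 (DESeq2) in LAC against NUL (1837 as reported), from 36 (clock score) to 863 (DESeq2) in ID2 against NUL (532), from 261 (0.01) to 1127 (DESeq2) in ID4 against NUL (698), and from 67 (0.01) to 450 (DESeq2) in ID6 against NUL (178). They ranged from 7 (title number) to 2.85 times the reported count (DESeq2) in ID8 against NUL (82), from 1 (only 2 stages) to 74 (DESeq2) in REG against NUL (14), from 1127 (0.01) to 3018 (DESeq2) in ID2 against LAC (2648), and from 73 (clock score) to 518 (DESeq2) in ID4 against ID2 (244). The last 3 comparisons ran from 459 (0.01) to 1845 (DESeq2) in ID6 against ID4 (1401), from 6 (title number) to 1210 (DESeq2) in ID8 against ID6 (677), and from 4 (0.01) to 78 (DESeq2) in REG against ID8 (8). All 3 ID8 mice and no NUL, ID6 or REG mouse had title numbers under 200. For ID8, stage and title range could therefore be told apart only through the ID2 and ID4 mice. The joint test called from 2534 (0.01) to 5584 (DESeq2) against 4431. With 1 animal left out the counts, in the same order, ran from 1140 to 1678, 161 to 455, 417 to 611, 0.567 to 1.25 times the reported count, 27 to 67, 4 to 32, 1389 to 2160, 98 to 193, 738 to 1469, 0.173 to 1.22 times the reported count, 2 to 14 and, for the joint test, 3702 to 4608. The lowest came without LAC_213 in LAC against NUL, ID2 against LAC and the joint test, and without ID8_101b in ID8 against ID6 and REG against ID8. On TPM, 82.2% of the calls in ID6 against ID4 were higher, against 45.6% as reported, and the median of all genes there shifted to 0.126 at a pseudocount of 0.1. Listed transporters called in LAC against NUL numbered 1 with only the 2 stages or without NUL_226, LAC_213 or LAC_240, against 3, and T3-responsive genes in ID6 against ID4 numbered 3 with the title number range, against 8. Stages hold 3 to 6 animals, which limits all comparisons.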
